A study of Canis lupus familiaris with 12 samples.

Results

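The 100 most abundant gene rows of control canine myoblasts were followed in 12 polyadenylated RNA libraries. Members were the 100 of 14736 joined rows with the highest mean CPM in the luciferase libraries (CPM, reads of a row per 1000000 gene reads of its library). The cells, all from one immortalized line of canine myoblasts, the precursors of skeletal muscle fibres, carried the lentiviral vector pCW57.1, in which doxycycline switches on the insert. Insert and group were human DUX4, canine DUXC, its isoform DUXC-ALT, or luciferase as the control, with 3 libraries each. Per the labels' protocols, every sample received 1 ug/ml doxycycline for 24 h, but their treatment tags name the drug for the 3 factors only and give none for luciferase. Every difference from luciferase may therefore also be one between doxycycline and its absence, and these cannot be told apart, whereas comparisons between factors do not carry it. The labels do not say whether the replicates were grown as separate cultures. The p-values therefore measure the spread between these libraries alone, which may be technical.

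DUX4 is a double homeobox transcription factor that is active in the early human embryo and is normally silent in muscle. Its misexpression in skeletal muscle underlies facioscapulohumeral dystrophy and is toxic to the cells. DUXC is a related double homeobox gene of other mammals. Much of the polyadenylated RNA of a cultured mesenchymal cell comes from highly expressed genes, such as those for cytoskeletal, extracellular matrix, ribosomal and mitochondrial proteins. Because counts are shares of a library, a change in such genes also shifts the apparent level of all others. In the tables used here no row is paired with a gene name, so each member is cited by its row number in the DUX4 table and its rank by mean luciferase CPM, with no gene role, and the muscle markers of the cells were not checked.

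Gene counts per library ranged from 15556477 to 20591033. Even the lowest member in any library held 2277 reads. Replicates of a group differed by 1.43 to 2.65 times the sampling noise (chi-square per degree of freedom over joined rows with 20 or more counts), so none were copies. Over the members alone, whose counts are high, the figure was 9.19 to 79.0 times. It includes rows 13960 and 15376, each with a coefficient of variation of 24.7% within DUXC-ALT, and was not computed without them. Within a group, the median coefficient of variation of a member was 1.22% with DUX4, 1.92% with DUXC, 1.22% with DUXC-ALT and 2.16% with luciferase. All 100 members passed the filter on low counts in every fit.

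The members together held the smallest share of all gene reads with DUX4, then DUXC, then DUXC-ALT, and the largest in luciferase cells, where they had been chosen. Their share was 25.6%, 25.7% and 25.8% in the DUX4 libraries, 26.6%, 26.5% and 26.6% in the DUXC libraries and 28.2%, 28.0% and 28.1% in the DUXC-ALT libraries, against 31.6%, 31.5% and 31.6% in the luciferase libraries. No group overlapped another. A lower share than luciferase is what choosing on luciferase favours, so it is given here as a description. The libraries of the factors were not used in the choice. Rows high in luciferase cells may still favour the factor nearest to luciferase in any comparison of members between factors. That factor was DUXC-ALT, whose median absolute log2 difference from luciferase over all tested rows was 0.18, beside 0.39 (DUX4) and 0.44 (DUXC). Between the factors, the share of the members differed by -2.40 ± 0.088 percentage points (DUX4 minus DUXC-ALT ± SE, n = 3 each). It was -1.52 ± 0.078 points for DUXC minus DUXC-ALT and 0.87 ± 0.081 points for DUXC minus DUX4. Each of these gave p = 0.1 in a 2-sided exact permutation test, the smallest that 3 against 3 libraries allow, and 0.113 after Benjamini-Hochberg adjustment over 9 tests of shares. Each library's own 100 most abundant rows held 28.5% of gene counts under DUXC-ALT, 27.8% under DUXC and 27.2% under DUX4 (means). These shares kept the order of the members' shares but lay closer together. How much of the members' differences between factors comes from the choice was not tested.

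**Figure D1:**
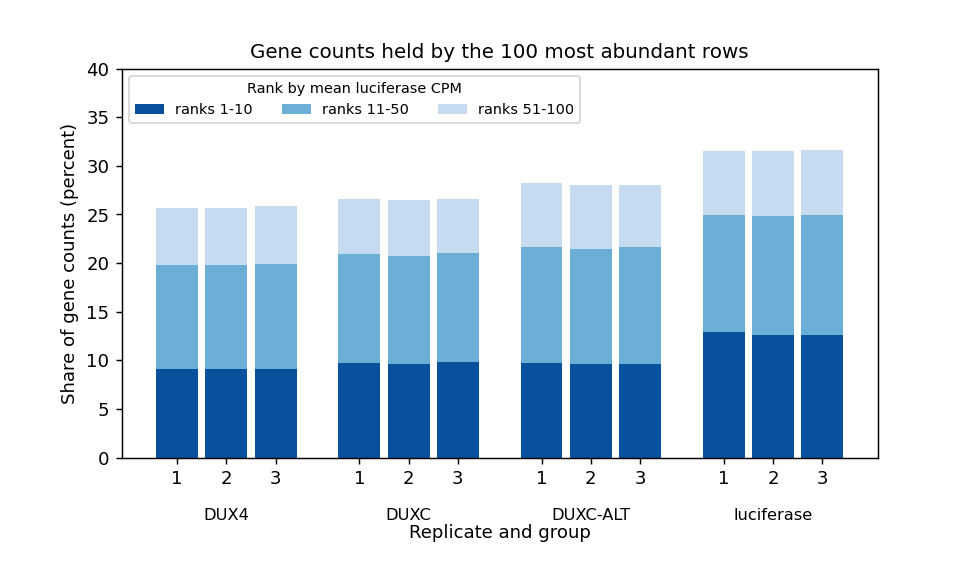
Share of gene counts in percent held by the 100 most abundant rows in each of 12 libraries, stacked by rank band, with libraries by group and replicate on the x axis. The full bars stand at 25.6% to 25.8% with DUX4 and 31.5% to 31.6% with luciferase, with DUXC and DUXC-ALT between.

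The members were also split into bands by luciferase rank, so a fall from luciferase in the top band is favoured by the choice and is given as a description. The 10 most abundant members held 9.09% ± 0.014 of gene counts in DUX4 cells, 9.74% ± 0.066 in DUXC cells and 9.65% ± 0.047 in DUXC-ALT cells, against 12.7% ± 0.16 in luciferase cells (SD, n = 3 each). The net change of the members with DUX4 relative to luciferase was -5.85 percentage points, made up of -3.61 in these 10 rows, -1.47 in ranks 11 to 50 and -0.778 in ranks 51 to 100. With DUXC-ALT the 10 rows made up -3.05 of -3.46 points. Between factors, the share of these 10 rows differed by -0.56 ± 0.028 points for DUX4 minus DUXC-ALT and by 0.65 ± 0.039 points for DUXC minus DUX4 (SE; exact permutation p = 0.1, adjusted 0.113). For DUXC minus DUXC-ALT it was 0.092 ± 0.047 points (exact permutation p = 0.3, adjusted 0.3), so there the lower share of all members with DUXC lay in ranks 11 to 100.

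The upper end of the list stayed in the list. Under each factor, the 10 most abundant rows of the whole table were all members, which in luciferase cells holds by the choice. Counts of members among the top rows may also favour the factor nearest to luciferase. Of the 100 most abundant rows, 78 were members under DUX4, 84 under DUXC and 93 under DUXC-ALT. The places of the others were taken by rows that ranked from 105 to 12887 in luciferase cells for DUX4, from 102 to 7904 for DUXC and from 102 to 161 for DUXC-ALT. Rows from beyond luciferase rank 1000 numbered 9 under DUX4, 2 under DUXC and 0 under DUXC-ALT. The lowest-ranked member stood at rank 1277 under DUX4, 308 under DUXC and 1293 under DUXC-ALT.

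Row 8874, the most abundant row in luciferase cells, also led the DUXC and DUXC-ALT groups. It had 11092, 10865 and 10859 CPM in the DUX4 libraries, 19096, 18929.7 and 18900.4 in the DUXC libraries and 19606, 19325 and 19389.7 in the DUXC-ALT libraries, against 28444, 27204 and 28537 in the luciferase libraries. DUX4 was lowest and luciferase highest, with no overlap of either with another group. Its share was 1.09% of gene counts with DUX4 and 1.94% with DUXC-ALT, and its log2 difference between them was -0.75 ± 0.015 (± SE; adjusted p = 2.12e-131 by edgeR). Here and below, log2 differences are edgeR estimates on the TMM scale. They can differ from the log2 ratio of the CPM printed beside them by more than their SE. DUXC and DUXC-ALT did not differ at the threshold in this row, with a log2 difference of -0.0096 ± 0.018 (± SE; adjusted p = 0.625 by edgeR).

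Under DUX4 the most abundant row was instead row 12878, ranked 6 in luciferase cells. It had 18462, 18688 and 19063 CPM in DUX4 cells, 15256, 16058 and 15498 in DUXC cells and 14231, 13939.8 and 14323 in DUXC-ALT cells, against 11773, 11443 and 11462 in luciferase cells, 4 levels that did not overlap. Rows 10521, 1326 and 9164, ranked 3 to 5, shared another order, lowest with DUX4 and highest with luciferase, with DUXC above DUXC-ALT. Row 10521 stood at 4612 ± 78.1 CPM in DUX4 cells, 8532 ± 161 in DUXC cells and 7375 ± 152 in DUXC-ALT cells, against 13316 ± 110.4 in luciferase cells (SD, n = 3 each). Row 9149, ranked 2, was lowest in DUXC-ALT cells, at 16941 ± 99.6 CPM in DUX4 cells, 13082 ± 220.4 in DUXC cells and 10678 ± 78.5 in DUXC-ALT cells, against 19255 ± 355 in luciferase cells. Row 2787, ranked 7, and row 5296, ranked 10, had their lower levels with DUX4 and DUXC. Row 2787 stood at 6988 ± 1.74 CPM in DUX4 cells and 6594 ± 152 in DUXC cells, against 11064 ± 55.2 in DUXC-ALT cells. Row 11195, ranked 9, was higher with DUX4 than with either canine form, at 9114 ± 57.8 CPM in DUX4 cells, 6362 ± 342 in DUXC cells and 5959 ± 79.2 in DUXC-ALT cells. Row 1669, ranked 8, ranged between group means of 6655 and 7865 CPM.

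Taken over all 100 members, the ratio of the highest to the lowest group mean had a median of 1.55 and ran from 1.09 to 19.0. It exceeded 1.5 for 61 members, 2 for 16 and 4 for 2. No share of all rows past these ratios is given here. DUX4 gave the lowest mean of 49 members, DUXC of 26, DUXC-ALT of 13 and luciferase of 12. The highest mean lay with DUX4 for 22 members, with DUXC for 6, with DUXC-ALT for 31 and with luciferase for 41. These counts describe levels, and the choice of members favours luciferase. In bulk RNA, fewer cells that make a transcript and less of it per cell cannot be told apart.

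**Figure D2:**
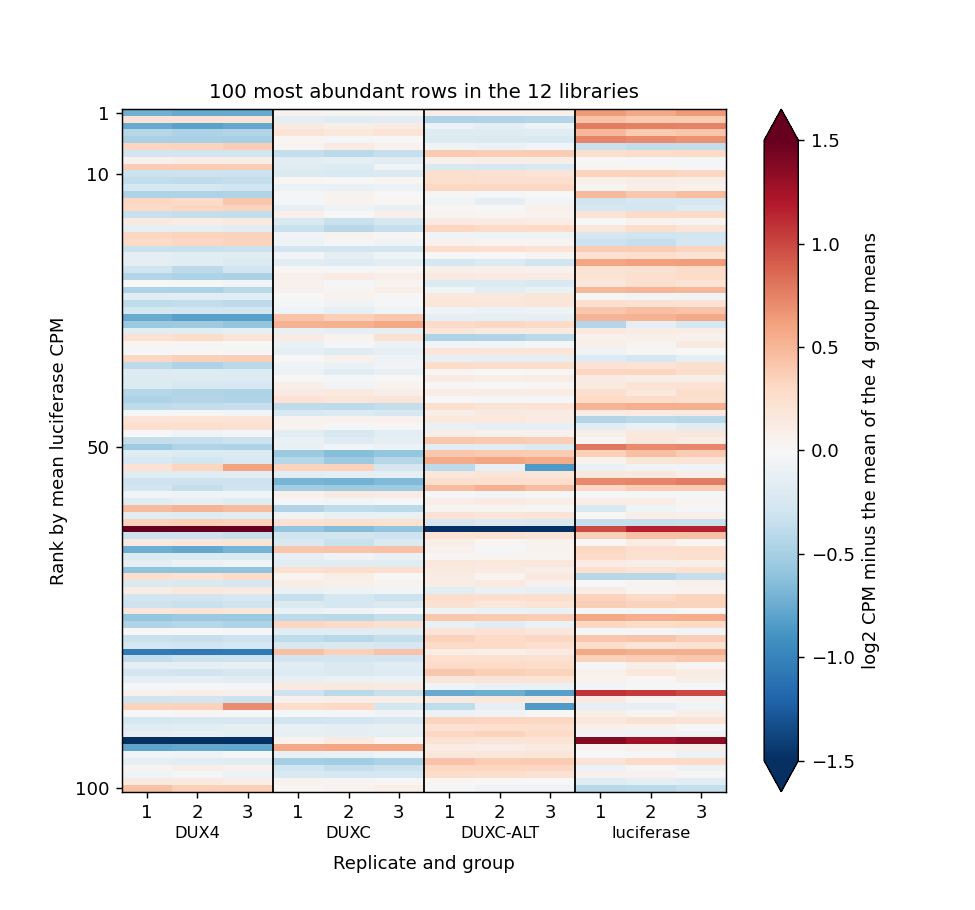
Each line is 1 of the 100 members in order of luciferase rank (y axis), each column 1 of 12 libraries by group and replicate, and the colour is the log2 CPM minus the mean of the 4 group means. Replicates look alike within a group for nearly all members; the darkest lines are row 430 (rank 62) and row 7584 (rank 93), and lines 53 and 88 (rows 13960 and 15376) differ between replicates.

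Human DUX4 against DUXC-ALT separated nearly all members, mostly downward. Of the 100 members, 31 were higher and 68 lower by edgeR's quasi-likelihood test at an adjusted p under 0.05. Over all 13157 tested rows, 37.9% were called higher and 37.8% lower. The groups did not overlap for 97 members, against 78.0% of all tested rows. Of the members, 8 members were called and more than 1.5-fold higher and 13 more than 1.5-fold lower, where 22.2% and 8.06% of tested rows were. The median log2 difference of members was -0.24 beside -0.011 for all tested rows, and the median absolute difference was 0.37 beside 0.36. The median SE was 0.019 for members and 0.066 for all rows, so members were called at smaller differences.

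Row 430, ranked 62, differed most. It had 2642, 2685 and 2703 CPM in DUX4 cells and 144, 135 and 143 CPM in DUXC-ALT cells, or 4.33 ± 0.023 on the log2 scale (± SE; adjusted p = 1.73e-273 by edgeR). Row 7584, ranked 93, went the other way, at 148, 133 and 146 CPM in DUX4 cells and 505, 494 and 497 in DUXC-ALT cells, or -1.73 ± 0.025 on the log2 scale (± SE; adjusted p = 1.11e-149 by edgeR). Row 2229 had 395, 393 and 394 CPM in DUX4 cells and 887, 872 and 896 in DUXC-ALT cells, or -1.09 ± 0.021 on the log2 scale. These were the only members past 2-fold, 1 higher and 2 lower, where 14.7% and 1.82% of tested rows were. Next among the lower members were row 7044 at -0.87 ± 0.021, row 9988 at -0.81 ± 0.021 and row 8602 at -0.77 ± 0.018 (log2 difference ± SE). Among the higher, row 8949 differed by 0.93 ± 0.022, row 13012 by 0.76 ± 0.018, and rows 15376 and 13960 by 0.97 ± 0.24 and 0.90 ± 0.23. The calls of rows 15376 and 13960 were weak, with edgeR adjusted p = 0.0191 and 0.0233. Both calls were lost without DUX4 replicate 3 (log2 difference 0.84 and 0.78) or DUXC-ALT replicate 1 (0.98 and 0.90), and that of row 13960 also without DUX4 replicate 2 (0.93).

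Canine DUXC against its isoform DUXC-ALT also had more members lower than higher, with smaller steps. Of the 100 members, 32 were higher and 53 lower by edgeR's quasi-likelihood test at an adjusted p under 0.05. Over all 13148 tested rows, 38.2% were called higher and 38.6% lower. Of the called members, 2 were more than 1.5-fold higher and 10 more than 1.5-fold lower, against 22.7% and 13.6% of tested rows. The median log2 difference was -0.081 for members and -0.010 for all tested rows, and the median absolute difference 0.27 beside 0.43. The members' median was -0.0096 for the 50 most abundant rows and -0.12 for the first 200. By rank the calls were spread as follows, with no test of the difference between bands. In ranks 51 to 100, 30 of 50 members were lower and 14 higher, with a median of -0.27. In ranks 11 to 50, 20 of 40 were lower and 12 higher, with a median of -0.052. Of the first 10, 6 were higher and 3 lower, with a median of 0.14.

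Rows 918, 15507, 10405 and 11205, ranked 52, 56, 51 and 55, had the largest negative differences. Row 918 had 1235, 1139.9 and 1239 CPM in DUXC cells and 2458, 2504 and 2458 in DUXC-ALT cells, or -1.01 ± 0.024 on the log2 scale (± SE; adjusted p = 5.18e-39 by edgeR). Row 15507 had 932, 926 and 926 CPM in DUXC cells and 1864, 1942 and 1856 in DUXC-ALT cells, or -0.999 ± 0.023 on the log2 scale. Each stood near 2-fold, with replicates close together. Row 10405 differed by -0.96 ± 0.023, row 11205 by -0.92 ± 0.023 and row 1268 by -0.87 ± 0.024 (log2 difference ± SE). In the other direction row 430 again led, at 484, 463 and 484 CPM in DUXC cells and 144, 135 and 143 in DUXC-ALT cells, or 1.79 ± 0.029 on the log2 scale (± SE; adjusted p = 1.23e-54 by edgeR). Row 13012 followed at 0.61 ± 0.033, row 2101 at 0.56 ± 0.022, row 9988 at 0.50 ± 0.022 and row 4738 at 0.49 ± 0.021.

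Canine DUXC against human DUX4 gave the most even split of the members. Of the 100 members, 45 were higher and 38 lower by edgeR's quasi-likelihood test at an adjusted p under 0.05. Over all 13324 tested rows, 33.1% were called higher and 33.0% lower. The split of the calls depended on the fit: when all 12 libraries were fitted together, 36 members were higher and 47 lower. The median of all tested rows shifted by -0.062 in that fit, whose shares of all rows called are not given here. In that fit the median log2 difference was -0.030 for members and -0.066 for all tested rows. In the fit of the 6 libraries compared, the median was 0.031 for members and -0.0045 for all tested rows, with a median absolute difference of 0.21 beside 0.29. The sign of the members' median also turned for the 200 most abundant rows, at -0.011, so no direction is read from it. Past 1.5-fold there were 14 members, where 24.8% of tested rows were past it in either direction, and 12 of the 14 were higher. The shares of tested rows past 1.5-fold in each direction are not given here, so no lean is read from the 12. More than 2-fold, 6 were higher with DUXC and 1 lower, beside 6.39% and 5.53% of tested rows.

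The 6 members more than 2-fold higher with DUXC than with DUX4 were rows 7584, 2229, 9988, 2101, 9349 and 8602. Row 7584 had 450.2, 471 and 443 CPM in DUXC cells and 148, 133 and 146 in DUX4 cells, or 1.68 ± 0.032 on the log2 scale (± SE; adjusted p = 6.92e-44 by edgeR). Row 2229 had 1126, 1059 and 1105 CPM in DUXC cells and 395, 393 and 394 in DUX4 cells, or 1.48 ± 0.026 on the log2 scale. Both were lowest with DUX4 among all 4 groups. Row 9988 had 1515, 1526 and 1519 CPM in DUXC cells and 586, 594 and 591 in DUX4 cells, or 1.37 ± 0.024 on the log2 scale, while DUXC-ALT at 1096 ± 15.9 CPM and luciferase at 1067 ± 13.9 CPM lay between (SD, n = 3 each). Row 8602 had 4484, 4518 and 4687 CPM in DUXC cells and 2128, 2173 and 2085 in DUX4 cells, or 1.11 ± 0.023 on the log2 scale. Row 2101 differed by 1.20 ± 0.024 and row 9349 by 1.17 ± 0.024 (SE), and each stood lowest with DUX4. Against these, row 430 was lower with DUXC by a log2 difference of -2.48 ± 0.025 (± SE; adjusted p = 3.83e-64 by edgeR). Row 7199 was next, at 1291, 1353 and 1333 CPM in DUXC cells and 2445, 2510.0 and 2459.7 in DUX4 cells, or -0.89 ± 0.023 on the log2 scale. Rows 11195, 9660 and 8949 differed by -0.51 ± 0.025, -0.42 ± 0.024 and -0.42 ± 0.026.

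**Figure D3:**
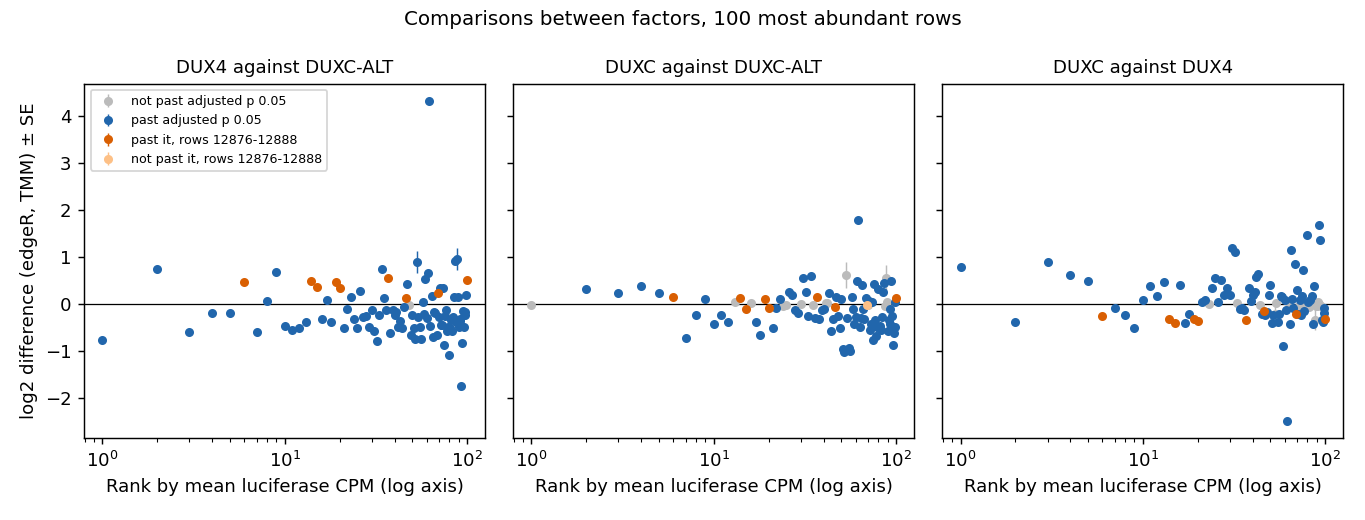
Log2 difference with its SE (y axis, edgeR with TMM scaling) of the 100 members by luciferase rank (x axis, log) in the 3 comparisons between factors; blue points passed an adjusted p of 0.05, grey did not, and orange marks rows 12876 to 12888. Most points lie within 1 log2 unit of 0; row 430 stands alone at 4.33 against DUXC-ALT under DUX4 and at -2.48 for DUXC against DUX4.

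Row 430 had the widest range of any member, a ratio of 19.0 between its highest and lowest group mean. Its mean was 2677 ± 31.3 CPM in DUX4 cells, 477 ± 12.7 in DUXC cells and 141 ± 4.52 in DUXC-ALT cells, against 1566 ± 114 in luciferase cells (SD, n = 3 each). From high to low the order was DUX4, luciferase, DUXC and DUXC-ALT, and no neighbours in it overlapped. Among all rows it ranked 24 under DUX4, 269 under DUXC and 1293 under DUXC-ALT, against 62 under luciferase. Its luciferase replicate 1, at 1435 CPM, lay below the other luciferase libraries. Row 7584 had the second widest range, a ratio of 7.63, and ranked 1277 with DUX4. Its mean was 143 ± 8.20 CPM in DUX4 cells, 455 ± 14.5 in DUXC cells and 499 ± 5.70 in DUXC-ALT cells, against 1087 ± 38.7 in luciferase cells, and no libraries of different groups overlapped. Row 8949 was the third, with 579, 589 and 581 CPM in DUX4 cells, 447, 416 and 439 in DUXC cells and 327, 331 and 315 in DUXC-ALT cells, against 1176, 1142 and 1095 in luciferase cells. All its factor libraries lay below all its luciferase libraries. Row 11205, ranked 55, had 849, 846 and 852 CPM in DUX4 cells, 651, 643 and 666 in DUXC cells and 1266, 1257 and 1254 in DUXC-ALT cells, against 1735, 1744 and 1794 in luciferase cells, so DUXC was lowest.

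**Figure D4:**
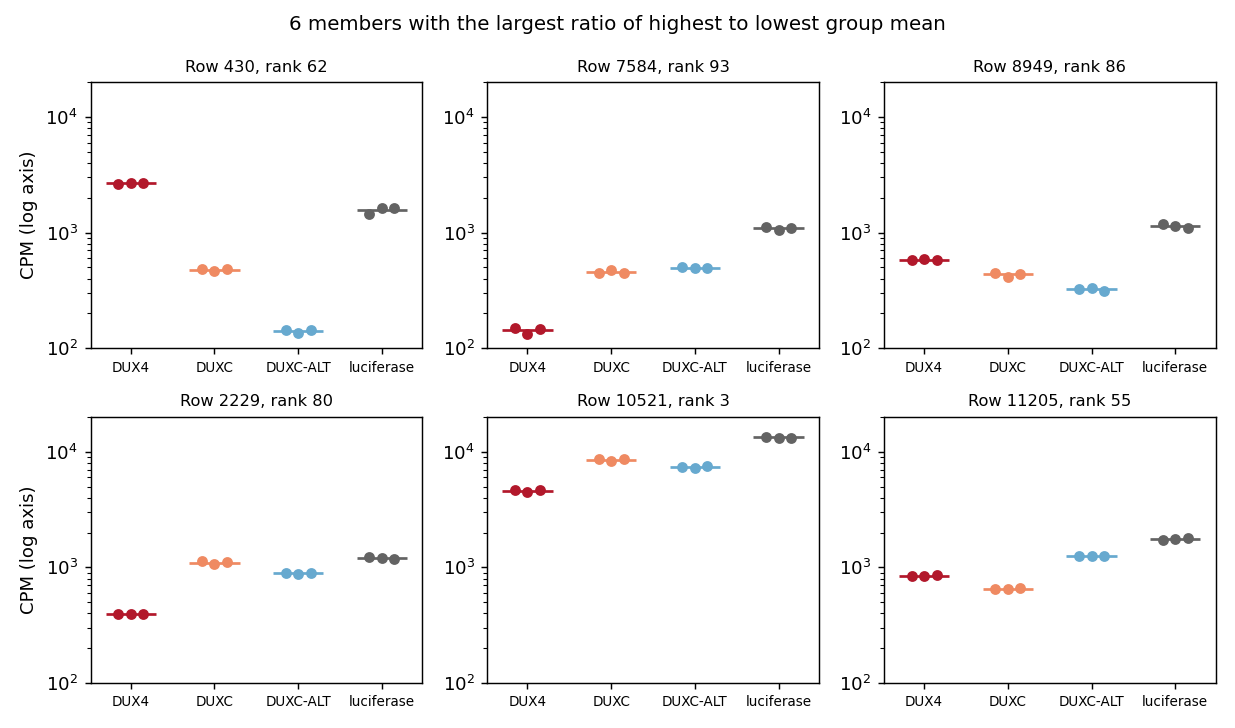
CPM on a log axis (y) of 6 members in each of 12 libraries, by group (x); points are libraries and lines are group means. Row 430 runs from 2677 CPM in DUX4 cells to 141 CPM in DUXC-ALT cells, rows 7584, 2229 and 10521 are lowest in DUX4 cells, and rows 8949 and 11205 are highest in luciferase cells.

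A block of neighbouring rows stood highest with DUX4, unlike most of the list. The 13 rows numbered 12876 to 12888 held 9 members (rows 12876, 12877, 12878, 12879, 12881, 12882, 12885, 12886 and 12888), and the 4 others ranked from 179 to 328 in luciferase cells. The block was picked out after its values were seen, so its members are described and no test of the block was made. The 9 members held 5.45%, 5.49% and 5.62% of gene counts in the DUX4 libraries, 4.39%, 4.60% and 4.46% in the DUXC libraries and 4.37%, 4.27% and 4.38% in the DUXC-ALT libraries, against 3.55%, 3.50% and 3.59% in the luciferase libraries. As a description, the log2 differences of the 9 rows ran from 0.14 to 0.57 for DUX4 over DUXC-ALT. Those of DUXC over DUX4 lay between -0.41 and -0.14. Set against DUXC-ALT, DUXC gave differences between -0.10 and 0.16. The other 91 members held 20.2% ± 0.028 of gene counts in DUX4 cells, 22.1% ± 0.19 in DUXC cells and 23.8% ± 0.090 in DUXC-ALT cells, against 28.0% ± 0.012 in luciferase cells (SD, n = 3 each). Of these 91, 22 were higher and 68 lower with DUX4 than with DUXC-ALT by edgeR's adjusted p, beside 37.9% and 37.8% of all tested rows. All 9 members of the block were called higher in this comparison. Leaving them out favours the lower side, so these counts are a description too.

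Rows 13960 and 15376, ranked 53 and 88, were the members with the largest spread between replicates. Row 13960 had 2247, 2407 and 2923 CPM in DUX4 cells, 2428, 2457 and 1622 in DUXC cells and 1464, 1778 and 1069 in DUXC-ALT cells, against 1806, 1856 and 1854 in luciferase cells. Row 15376 had 1524, 1539 and 1977 CPM in DUX4 cells, 1453, 1497 and 1009.9 in DUXC cells and 933, 1118 and 672 in DUXC-ALT cells, against 1105, 1110.1 and 1156 in luciferase cells. The same libraries were high or low for both rows: replicate 3 was highest with DUX4 and lowest with DUXC and DUXC-ALT, while the luciferase libraries lay close together. Within DUXC-ALT the coefficient of variation was 24.7% for row 13960 and 24.7% for row 15376. The ratio of row 13960 to row 15376 stayed between 1.47 and 1.67 in all 12 libraries. The counting of reads that match several rows is not described in the sources at hand, so reads shared by the 2 rows were not tested. Row 8602 had the third largest spread, 10.4% within luciferase, where replicate 1 was lowest at 2313 CPM and replicate 2 highest at 2850.2 CPM.

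**Figure D5:**
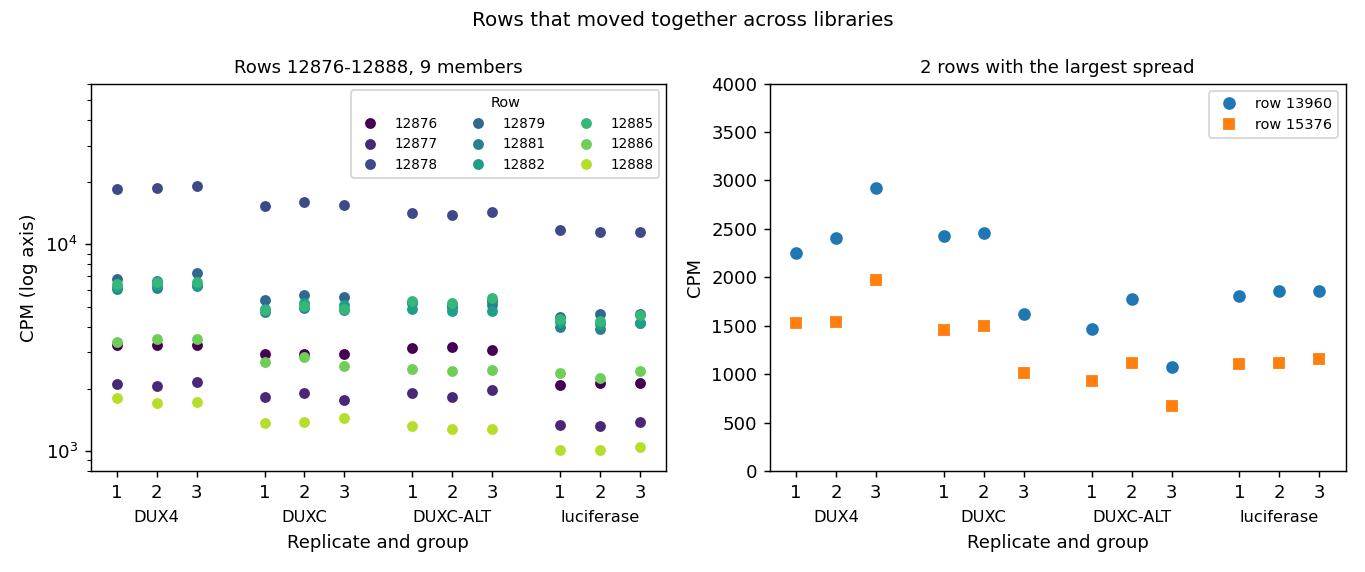
CPM of the 9 members among rows 12876 to 12888 (left, log axis) and of rows 13960 and 15376 (right, linear axis) in each of 12 libraries by group and replicate. On the left all 9 rows are highest with DUX4, row 12878 at 18738 CPM on average, and on the right the 2 rows change together from library to library.

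The members were also set against luciferase. Since luciferase values chose the members, counts on all 3 luciferase libraries are a description, from which nothing is read. With DUX4, 71 members were called lower and 24 higher, beside 35.8% and 38.4% of all 13629 tested rows. With DUXC the numbers were 76 and 17, beside 37.4% and 38.9% of 13693. With DUXC-ALT they were 52 and 28, beside 25.7% and 25.6% of 12821. Scaled on library totals alone, which shifted the median of all tested rows by 0.074, the DUXC-ALT numbers were 47 and 39. The shares of all rows called under that scaling are not given here. Members were also chosen on 1 luciferase library and compared with the other luciferase libraries by edgeR's quasi-likelihood test at an adjusted p under 0.05. This keeps the noise of the choosing library out of the comparison, but the rows are still chosen for being high in luciferase cells. Of the members, 97, 99 and 100 recurred on replicates 1, 2 and 3, so the counts that follow are a description too. No share of all rows is given for these fits. Over the 3 choices, 70 to 71 members were lower and 21 to 22 higher with DUX4. The same calculation gave 75 to 77 lower and 16 to 17 higher with DUXC, and 50 to 54 lower and 25 to 29 higher with DUXC-ALT. The 3 comparisons share the luciferase libraries and the doxycycline label.

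Single members give the size of these distances. The median log2 difference of members from luciferase was -0.36 under DUX4, -0.26 under DUXC and -0.079 under DUXC-ALT, beside medians within 0.00493 of 0 for all tested rows. The choice on luciferase favours negative values in these comparisons, so they are a description. TMM scaling itself keeps the median of all tested rows near 0. The DUXC-ALT median was -0.0049 when scaled on library totals, where the median of all tested rows also moved, from 0.0045 to 0.078. For the 50 most abundant rows the DUXC-ALT median was -0.18. More than 2-fold, 10 members were called lower under DUX4, 5 under DUXC and 3 under DUXC-ALT. No member was more than 2-fold higher with any factor, the top values being 0.77 for row 12888 with DUX4 and 0.77 for row 8602 with DUXC. The background for more than 2-fold higher was 15.4% under DUX4, 16.1% under DUXC and 0.842% under DUXC-ALT, and for lower 4.51%, 4.97% and 3.64%. With DUX4 the lowest members were row 7584 at a log2 difference of -2.94 ± 0.033, row 2229 at -1.63 ± 0.028 and row 10521 at -1.54 ± 0.023 (SE). The highest were row 12888 at 0.77 ± 0.026, row 430 at 0.76 ± 0.044 and row 12878 at 0.69 ± 0.022. With DUXC the ends of the list were row 430 at -1.76 ± 0.041, row 11205 at -1.47 ± 0.029 and row 8949 at -1.44 ± 0.031, and row 8602 at 0.77 ± 0.084, row 4738 at 0.52 ± 0.027 and row 9988 at 0.46 ± 0.027. With DUXC-ALT they were row 430 at -3.55 ± 0.060, row 8949 at -1.88 ± 0.028 and row 7584 at -1.20 ± 0.027, and row 8602 at 0.50 ± 0.087, row 12876 at 0.49 ± 0.024 and row 12877 at 0.42 ± 0.026. Row 430 thus lay above luciferase with DUX4 and below it with both canine forms.

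The ratio of highest to lowest group mean was under 1.2 for 6 members. It includes the luciferase mean that chose the members. No share of all rows under this ratio is given here, so members are not set against other rows. The 3 steadiest were rows 1953, 4576 and 2318, ranked 89, 57 and 35. Row 1953 stood at 1068 ± 9.78 CPM in DUX4 cells, 1034 ± 14.6 in DUXC cells and 1020.2 ± 30.8 in DUXC-ALT cells, against 1110.0 ± 22.9 in luciferase cells (SD, n = 3 each). Row 4576 stood at 1674 ± 14.0 CPM in DUX4 cells, 1876 ± 49.0 in DUXC cells and 1706 ± 8.27 in DUXC-ALT cells, against 1706 ± 3.87 in luciferase cells. Row 2318 stood at 2345 ± 13.6 CPM in DUX4 cells, 2203 ± 55.0 in DUXC cells and 2257 ± 30.2 in DUXC-ALT cells, against 2465 ± 74.2 in luciferase cells. Between DUX4 and DUXC-ALT the log2 difference of row 2318 was 0.14 ± 0.018 (± SE; adjusted p = 2.47e-12 by edgeR) on the TMM scale. The ratio of its CPM means was only 1.04. In this comparison, scaling on library totals alone shifted the median of all tested rows by -0.081. A step this small therefore depends on the scaling, which the SE does not measure.

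The edge of the list was not a natural break. The last 3 members by mean luciferase CPM, rows 9240, 10581 and 12888, stood at 1036, 1025 and 1021 CPM, and the first 3 rows outside, 5742, 7124 and 7306, at 1014, 1012 and 1012 CPM. Chosen on luciferase replicate 1, 2 or 3 alone, 97, 99 and 100 of the members were the same. The 3 rows just outside had 1000.4, 988 and 629 CPM in DUX4 cells, 864, 1492 and 576 in DUXC cells, and 1047, 1248 and 1034 in DUXC-ALT cells.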

How the data were processed

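The authors deposited gene tables of raw read counts, 1 table per factor with the luciferase libraries beside it; per the file headers, columns are named by sample titles. The submitters' processing notes list DESeq2, Bowtie2 2.2.6, TopHat2 2.1.0, CASAVA and the build canFam3, without saying what each did. The counting tool, its use of strand and its handling of reads matching several rows were not given in the sources used, so reads may be split between similar rows. Tables were joined by position over rows with at least 7 luciferase counts, whose luciferase counts are identical and in the same order. CPM are counts divided by the column total and multiplied by 1000000, with luciferase totals from the DUX4 table. Comparisons between factors used the joined rows and those with luciferase the factor's own table. Each was fitted on its 6 libraries with edgeR 4.0.16 in R 4.3.3 (TMM, filterByExpr, robust quasi-likelihood, Benjamini-Hochberg adjustment over all tested rows at 0.05), tested on simulated data. "Called" means past that threshold, and differences are log2 of the first group over the second on the TMM scale. The SE of a log2 difference was derived from the test, as its absolute value divided by the square root of the quasi-likelihood F. DESeq2 1.42.0 and other scalings, filters, list sizes and left-out libraries were alternatives. Shares were compared with exact permutation tests in scipy 1.17.1. Named rows were, by rule, the 10 most abundant, up to 5 called members with non-overlapping groups at each end of each comparison between factors, 3 at each end of each comparison with luciferase, the leaders of each group, the steadiest 3 and the 3 most variable. The 100 members and all lists were chosen with earlier results of these data known. Sequences and pathway lists were not used here.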

Additional observations from a re-analysis of the deposited data

How the results depend on the processing

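Counts of called members stayed within 1.5 times under every alternative but 1, which left out a block of rows, and the shares kept their direction in 33 of 33 alternatives. Median log2 differences moved by more than the spread between libraries (SD of a group's median, 0.0014 to 0.0075) where given here; the cause was not tested. Scaled on library totals alone, medians were -0.32 for DUX4 against DUXC-ALT, -0.11 for DUXC against DUXC-ALT, -0.35 for DUX4 against luciferase, -0.21 for DUXC against luciferase and -0.0049 for DUXC-ALT against luciferase. In the same order, the median of all tested rows shifted by -0.081, -0.025, 0.011, 0.047 and 0.074. With upper-quartile scaling, the members' medians were -0.33 for DUX4 against DUXC-ALT, -0.12 for DUXC against DUXC-ALT, -0.46 for DUX4 against luciferase, -0.33 for DUXC against luciferase and -0.095 for DUXC-ALT against luciferase. The median of all tested rows then shifted by -0.094, -0.034, -0.10, -0.064 and -0.016, in the same order. RLE scaling gave -0.23 for DUX4 against DUXC-ALT and -0.25 for DUXC against luciferase. DESeq2 gave -0.37 for DUX4 against luciferase, where the median of all tested rows shifted by 0.067. With no filter on low counts the medians were -0.25 for DUX4 against DUXC-ALT, -0.10 for DUXC against DUXC-ALT, -0.39 for DUX4 against luciferase and -0.28 for DUXC against luciferase. Fitting all 12 libraries gave -0.25 for DUX4 against DUXC-ALT, -0.030 for DUXC against DUX4 and -0.35 for DUX4 against luciferase. The 50 most abundant rows had medians of -0.21 for DUX4 against DUXC-ALT, -0.0096 for DUXC against DUXC-ALT, 0.083 for DUXC against DUX4, -0.42 for DUX4 against luciferase and -0.18 for DUXC-ALT against luciferase. The 200 most abundant rows had -0.19 for DUX4 against DUXC-ALT, -0.12 for DUXC against DUXC-ALT, -0.011 for DUXC against DUX4, -0.24 for DUX4 against luciferase, -0.24 for DUXC against luciferase and -0.055 for DUXC-ALT against luciferase. Chosen on luciferase replicate 1 and compared with the others, the members gave -0.37 for DUX4 against luciferase, -0.28 for DUXC against luciferase and -0.11 for DUXC-ALT against luciferase. Chosen on luciferase replicate 2 and compared with the others, the members gave -0.35 for DUX4 against luciferase. Without rows 12876 to 12888, left out after seeing the data, medians were -0.26 for DUX4 against DUXC-ALT, -0.11 for DUXC against DUXC-ALT, 0.048 for DUXC against DUX4, -0.41 for DUX4 against luciferase, -0.29 for DUXC against luciferase and -0.14 for DUXC-ALT against luciferase. Of the members left, 8.79% were called higher with DUXC than with luciferase, beside 38.9% of all tested rows, which is a description. Leaving out 1 library gave medians of -0.25 to -0.24 for DUX4 against DUXC-ALT, -0.10 to -0.084 for DUXC against DUXC-ALT, 0.027 to 0.040 for DUXC against DUX4, -0.37 to -0.35 for DUX4 against luciferase, -0.28 to -0.24 for DUXC against luciferase, -0.095 to -0.078 for DUXC-ALT against luciferase. The replicate numbers did not pair the libraries (same-number deviations correlated at -0.103 to 0.0201). With the replicate block, 29 members were higher and 68 lower for DUX4 against DUXC-ALT, 34 and 53 for DUXC against DUXC-ALT, and 45 and 38 for DUXC against DUX4. The shares of all rows called in these blocked fits are not given here, so nothing is read from the counts. Among named rows, row 1669 changed sign for DUX4 against DUXC-ALT with upper-quartile scaling (-0.015) and library totals (-0.0030), and for DUX4 against luciferase with upper-quartile scaling (-0.018). Row 4576 changed sign for DUX4 against DUXC-ALT under the same scalings (-0.040 and -0.027). Of the other values of named rows under an alternative, 13 lost their call, 14 gained one and 1970 changed neither direction nor side of the threshold.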
